A study of Homo sapiens with 12 samples.

Results

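The genes described here are the nuclear genes whose symbols mark them as subunits or named assembly factors of the mitochondrial respiratory chain and ATP synthase. They were taken by symbol alone: every entry starting with NDUF, UQCR, COX4 to COX8 or ATP5, together with SDHA, SDHB, SDHC and SDHD. The rule found 97 of the 19225 entries in the count table, of which 91 had enough counts to be tested. By name, 39 entries belonged to complex I, 8 were complex I assembly factors (NDUFAF), 4 belonged to complex II, 9 to complex III, 17 to complex IV and 16 to complex V. Another 2 (ATP5S and ATP5SL) carry the ATP5 name without being subunits, and 2 were readthrough entries. The 6 entries not tested were COX4I2, COX6A2, COX8C, ATP5L2 and the readthrough entries NDUFC2-KCTD14 and ATP5J2-PTCD1. NDUFA4 and its relative NDUFA4L2 were kept with complex I because of their symbols, although NDUFA4 is now regarded as a subunit of complex IV. The 13 subunits encoded by mitochondrial DNA had no entry under their MT- symbols in the count table, so they were not analysed here.

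Poly(A) RNA was sequenced from HN6 and HN30, established head and neck squamous carcinoma cell lines, 24 h after transfection. Each line received a scrambled siRNA (NC) or 1 of 2 siRNAs against FAT1 (siFAT1-1 and siFAT1-2), which gave 6 conditions. The sample names call the siRNAs sh1 and sh2, whereas the descriptions of the same samples give siRNA. Each condition had 2 repeats, labelled time1 and time2, so 12 libraries in all, 4 with NC and 8 with FAT1 knockdown (FAT1 KD). FAT1 encodes an atypical cadherin, and its fragments have been reported to act on mitochondrial respiration, which is why the respiratory chain was examined.

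The respiratory chain sits in the inner mitochondrial membrane. Complex I takes electrons from NADH and complex II, which is also the succinate dehydrogenase of the citric acid cycle, takes them from succinate. Complex III passes them to cytochrome c and complex IV from there to oxygen, while complexes I, III and IV pump protons that complex V uses to make ATP. Complex II is encoded wholly in the nucleus, and the other complexes combine nuclear subunits with a few encoded by mitochondrial DNA, so that they depend on both genomes and on dedicated assembly factors.

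Total counts ranged from 26430049 to 47639010 per library, and the members took 0.687 to 0.844% of them. Levels are given as CPM, a gene's counts relative to a library size scaled by the trimmed mean of M values (TMM). In HN6, FAT1 measured 56.8 and 66.7 CPM in the NC libraries, 7.61 and 13.5 after siFAT1-1 and 13.2 and 21.4 after siFAT1-2. In HN30 the NC libraries held 13.6 and 14.7 CPM, those with siFAT1-1 4.86 and 6.26 and those with siFAT1-2 10.8 and 7.74. In each line all FAT1 KD libraries lay below both NC libraries, and FAT1 fell with a log2 fold change of -1.59 ± 0.31 (SE; edgeR quasi-likelihood test, Benjamini-Hochberg adjusted p = 0.0404). Epithelial markers were present (EPCAM 190.2 to 497 CPM, KRT5 90.6 to 1987 CPM, TP63 27.6 to 275 CPM) whereas KRT14 did not exceed 2.42 CPM. The leukocyte gene PTPRC and the endothelial gene PECAM1 stayed at or below 0.0252 and 0.307 CPM, but they do not stand for their lists. The leukocyte list (4 genes) summed to between 24.3 and 124 CPM per library. The endothelial list (3 genes) summed to at most 7.87 CPM and the fibroblast list (6 genes) to at most 164 CPM. In bulk RNA, fewer cells of a type and less RNA per cell cannot be told apart.

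Members were abundant genes with short transcripts. Their median level was 5.82 on the log2 CPM scale against 4.6 over all 13887 genes tested, and their median transcript length was 894 nucleotides against 3276. The median standard error of the log2 fold change between FAT1 KD and NC was 0.169 for members and 0.269 for all genes. Repeats also differed less in members than in all genes in each of the 6 conditions.

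Of the members tested, 6 passed an adjusted p of 0.05 with one of the siRNAs against NC. They were NDUFA6 with siFAT1-1 (3.25% of all genes passed), and NDUFB10, NDUFS8, NDUFB5, SDHA and ATP5F1 with siFAT1-2 (11.8% of all genes). The promoters of all of them but NDUFB5 are shown because these members passed that threshold. Each runs from 250 bases before to 50 bases after the annotated start (RefSeq, GRCh38.p14, 5′ to 3′ on the gene's strand). Capitals mark matches to 3 motifs searched on both strands: GCGCANGCG (NRF1-type), CCGGAAG (ETS-type) and AAGATGGC (YY1-type).
NDUFA6, chr22:42090723-42091022, minus strand: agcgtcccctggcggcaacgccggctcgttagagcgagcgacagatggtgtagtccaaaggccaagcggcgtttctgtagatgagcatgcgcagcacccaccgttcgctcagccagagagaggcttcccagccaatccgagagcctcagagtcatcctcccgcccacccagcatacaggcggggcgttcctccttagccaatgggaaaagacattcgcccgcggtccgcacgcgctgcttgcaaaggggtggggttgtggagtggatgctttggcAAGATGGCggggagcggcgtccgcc
NDUFB10, chr16:1959288-1959587, plus strand: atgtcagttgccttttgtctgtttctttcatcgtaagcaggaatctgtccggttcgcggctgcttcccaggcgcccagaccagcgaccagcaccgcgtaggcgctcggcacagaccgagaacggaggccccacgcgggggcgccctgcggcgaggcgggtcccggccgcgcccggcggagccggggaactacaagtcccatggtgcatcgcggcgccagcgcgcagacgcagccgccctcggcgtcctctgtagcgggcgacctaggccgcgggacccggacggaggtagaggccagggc
NDUFS8, chr11:68030431-68030730, plus strand: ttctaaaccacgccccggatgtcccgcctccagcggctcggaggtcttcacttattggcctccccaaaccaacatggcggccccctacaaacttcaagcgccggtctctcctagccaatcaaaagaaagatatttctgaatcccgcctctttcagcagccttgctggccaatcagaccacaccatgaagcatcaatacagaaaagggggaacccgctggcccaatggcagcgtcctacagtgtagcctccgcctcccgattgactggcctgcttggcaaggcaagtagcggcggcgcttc
SDHA, chr5:218070-218369, plus strand: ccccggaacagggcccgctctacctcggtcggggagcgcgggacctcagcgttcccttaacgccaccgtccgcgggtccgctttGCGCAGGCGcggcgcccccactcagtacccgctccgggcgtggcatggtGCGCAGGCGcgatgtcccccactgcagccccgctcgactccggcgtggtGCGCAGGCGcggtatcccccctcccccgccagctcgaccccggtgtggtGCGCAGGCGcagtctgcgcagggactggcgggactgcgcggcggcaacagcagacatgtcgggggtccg
ATP5F1 (current symbol ATP5PB), chr1:111449214-111449513, plus strand: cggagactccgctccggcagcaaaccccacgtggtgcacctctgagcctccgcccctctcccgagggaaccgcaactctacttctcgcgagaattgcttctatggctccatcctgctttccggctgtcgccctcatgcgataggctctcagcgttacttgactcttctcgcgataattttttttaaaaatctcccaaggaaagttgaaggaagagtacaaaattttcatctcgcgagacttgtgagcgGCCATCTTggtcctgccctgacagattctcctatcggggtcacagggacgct

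The SDHA window held 4 NRF1-type matches, whose first bases lay 166, 117, 68 and 19 bases before the start. NDUFA6 held 1 YY1-type match from base 26 after the start, and ATP5F1 held 1 on the other strand that began 2 bases before the start. The windows of NDUFB10 and NDUFS8 held no match to these letters. Of the 73 tested members with an entry among protein-coding promoters, 22 held the NRF1-type motif (30.1%, against 11% of all 15842 such promoters). The ETS-type motif was in 20 (27.4% against 14.2%) and the YY1-type motif in 11 (15.1% against 3.91%). A match describes the letters of the window and shows no binding.

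Between FAT1 KD (both siRNAs together) and NC, with the cell line in the model, no member passed the adjusted threshold (0 of 91, where 0.547% of all genes passed). The edgeR test put 8 members at an unadjusted P under 0.05. DESeq2 called 2 members, NDUFA6 among them, where it called 4.71% of all genes, and limma-voom 0 (0.691% of all genes). Of the 8, 3 were higher with FAT1 KD (6.77% of all genes were) and 5 were lower (7.75% of all genes). The median log2 fold change over members was -0.10, with 64 of 91 below 0, against 0.02 over all genes. For 85 of 91 members (93.4%) the interval of 2 standard errors lay within a doubling and a halving, which was so for 59.8% of all genes. A doubling was thus outside the interval of nearly every member at this depth and number of repeats.

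The 39 subunits of complex I, the NADH dehydrogenase, had a median log2 fold change of -0.14, and 31 lay below 0. The 5 members at an unadjusted P under 0.05 on the lower side were all complex I subunits: NDUFA6, NDUFA9, NDUFV3, NDUFC2 and NDUFB10. The medians of complexes III, IV and V were -0.15, -0.07 and -0.08, and that of complex II was -0.01. With transcript length offsets those of complexes I, III and V remained below 0 (-0.08, -0.06 and -0.03) whereas those of complexes IV and II came to 0.00 and 0.08. The 8 complex I assembly factors had a median of 0.13, with 5 above 0.

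**Figure D1:**
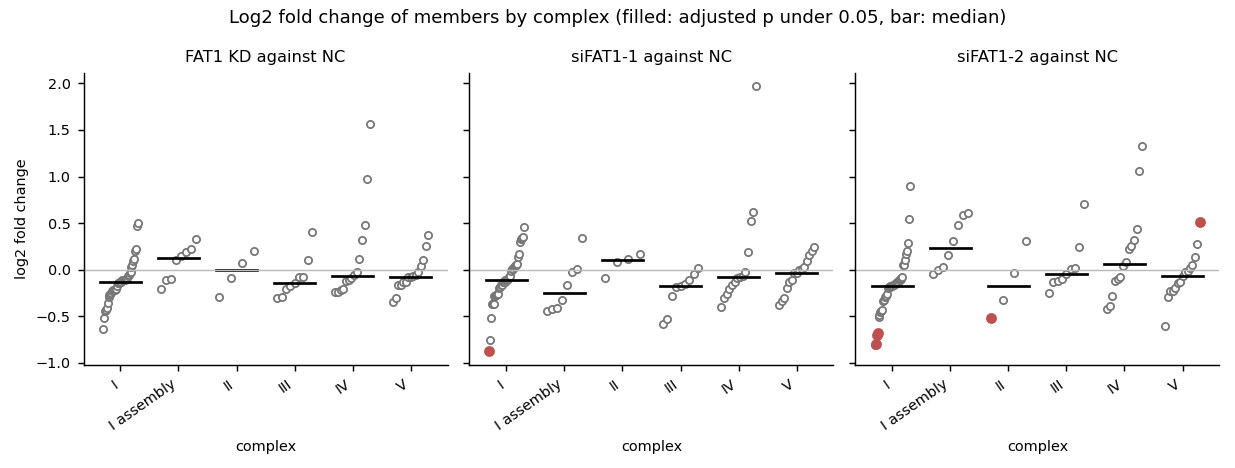
Log2 fold change of every tested subunit and complex I assembly factor (y axis) by complex (x axis), for FAT1 KD against NC and each siRNA against NC, with each point 1 gene, black bars the medians and filled points an adjusted p under 0.05. The medians lie between -0.24 and 0.23, and the filled points are 1 gene with siFAT1-1 and 5 genes with siFAT1-2.

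In both lines, all 4 FAT1 KD libraries lay below both NC libraries for 4 members, NDUFA6, NDUFA9, NDUFC2 and NDUFV3 (3.15% of all genes did so), and above them for 1 member, ATP5F1 (2.29% of all genes). No member lay below in one line and above in the other, which 0.209% of all genes did. NDUFA9, an accessory subunit near the quinone site of complex I, was at 91.0 and 114 CPM with NC in HN6 and between 65.7 and 88.8 in the 4 FAT1 KD libraries. In HN30 it was at 74.2 and 63.4 CPM with NC and between 55.4 and 59.0 with FAT1 KD. The gap was small against the difference between NC repeats, and the log2 fold change was -0.36 ± 0.14 (SE; edgeR, adjusted p = 0.261). NDUFV3, an accessory subunit of the NADH-oxidising module, was at 26.4 and 32.8 CPM with NC and 18.5 to 25.9 with FAT1 KD in HN6. It was at 29.9 and 26.6 CPM with NC and 19.0 to 24.1 with FAT1 KD in HN30. Its log2 fold change was -0.41 ± 0.16 (SE; edgeR, adjusted p = 0.262). NDUFC2, a subunit of the membrane arm, was at 5.94 and 5.98 CPM with NC in HN6 and 4.30 to 5.84 with FAT1 KD, and in HN30 at 18.6 and 12.3 against 7.66 to 10.3. Its log2 fold change was -0.51 ± 0.20 (SE; edgeR, adjusted p = 0.272), and the gap in HN6 was small. Reads of NDUFC2 could be shared with the readthrough entry NDUFC2-KCTD14, so its count is uncertain.

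On the higher side, COX6B2, the testis form of the COX6B subunit of complex IV, was the 1 member that also differed by more than 1 on the log2 scale at P under 0.05 before adjustment, which 3.07% of all genes did. It was at 3.83 and 3.33 CPM with NC in HN6, 5.73 and 7.68 with siFAT1-1 and 17.7 and 5.38 with siFAT1-2. HN30 had 0.905 and 4.51 CPM with NC, 17.8 and 14.4 with siFAT1-1 and 1.87 and 3.17 with siFAT1-2. It was therefore high in both siFAT1-1 libraries of HN30 and in 1 siFAT1-2 library of HN6, and its log2 fold change of 1.56 ± 0.64 (SE) did not pass (edgeR, adjusted p = 0.289). The common form COX6B1 was at 49.5 to 94.4 CPM in all 12 libraries, with a log2 fold change of -0.09 ± 0.17 (SE; edgeR, adjusted p = 0.841).

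The core and accessory subunits often used to follow these complexes gave small values between FAT1 KD and NC. The largest was that of NDUFA9, given above, at -0.36. For complex I, log2 fold changes were -0.02 for NDUFS1, -0.14 for NDUFV1, -0.22 for NDUFS3 and -0.14 for NDUFB8. For complex III they were -0.18 for UQCRC1, 0.10 for UQCRC2 and -0.07 for the Rieske iron-sulphur protein UQCRFS1. For complex IV they were -0.21 for COX4I1, -0.24 for COX5A and -0.11 for COX5B. For the alpha, beta and gamma subunits of complex V they were -0.16 for both ATP5A1 and ATP5B and -0.07 for ATP5C1. Standard errors of these genes lay between 0.12 and 0.19, and none passed the threshold.

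The comparisons of each siRNA with NC share the same 4 NC libraries, so their values are given side by side. With siFAT1-1 alone against NC, 1 of 91 members passed the adjusted threshold, where 3.25% of all genes did. That member was NDUFA6, an accessory subunit of complex I of the LYR family. It was at 53.0 and 54.6 CPM with NC in HN6, 33.9 and 37.4 with siFAT1-1 and 41.5 and 40.4 with siFAT1-2. Values in HN30 were 51.8 and 39.5 CPM with NC, 21.2 and 19.2 with siFAT1-1 and 31.9 and 34.5 with siFAT1-2. The order NC, siFAT1-2, siFAT1-1 held in both lines with no overlap between conditions. NDUFA6 fell by 0.88 ± 0.17 on the log2 scale with siFAT1-1 (SE; edgeR quasi-likelihood test, adjusted p = 0.016), and with siFAT1-2 its log2 fold change was -0.43 ± 0.17 (SE; edgeR, adjusted p = 0.114). The direct comparison of the siRNAs gave -0.45 ± 0.17 (SE; edgeR, adjusted p = 0.0828). The siFAT1-1 call was lost without HN30 NC repeat 1, HN30 siFAT1-1 repeat 1 or HN30 siFAT1-1 repeat 2 (adjusted p 0.0592 to 0.0913), with log2 fold changes from -0.98 to -0.76 on leaving out each library in turn.

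At an unadjusted P under 0.05, siFAT1-1 had 2 members higher than NC, COX6B2 among them (8.81% of all genes were higher). It had 8 lower, NDUFA6, NDUFA2, UQCRH, UQCRQ, NDUFC2, ATP5B, NDUFAF5 and NDUFS5 (10.2% of all genes were lower). NDUFA2, a small accessory subunit, came closest to the threshold among the rest, at -0.75 ± 0.19 (SE; edgeR, adjusted p = 0.0566). It was at 31.9 and 33.2 CPM with NC in HN6 and at 21.3 and 20.4 with siFAT1-1, and in HN30 at 32.3 and 24.3 against 15.8 and 15.1. UQCRH, the hinge protein of complex III next to cytochrome c1, was at 88.2 and 118 CPM with NC in HN6 and 69.9 and 71.3 with siFAT1-1. The HN30 libraries were at 119.5 and 105 CPM with NC and 80.1 and 77.1 with siFAT1-1. The siFAT1-1 libraries lay below both NC libraries in both lines, with a log2 fold change of -0.53 ± 0.15 (SE; edgeR, adjusted p = 0.0772). UQCRHL is a near-identical copy of UQCRH, so reads may be split between them. COX6B2 had a log2 fold change of 1.97 ± 0.70 with siFAT1-1 (SE; edgeR, adjusted p = 0.153). With transcript length offsets NDUFA2 and UQCRH also passed (edgeR, adjusted p = 0.0424 and 0.0493), where 3.59% of all genes did.

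With siFAT1-2 alone, 5 of 91 members passed the adjusted threshold, where 11.8% of all genes did. The 4 that fell were the complex I subunits NDUFB10, NDUFS8 and NDUFB5 and the complex II flavoprotein SDHA, and the 1 that rose was ATP5F1. At an unadjusted P under 0.05 there were 7 higher (12.9% of all genes) and 14 lower (16% of all genes). With transcript length offsets the unadjusted split turned to 14 higher and 9 lower, with 4137 of the 13887 genes under 0.05. The adjusted calls became 3 higher and 4 lower, where 12.6% of all genes passed.

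NDUFB10, an accessory subunit of the membrane arm of complex I, was at 43.6 and 55.6 CPM with NC in HN6, 47.2 and 41.4 with siFAT1-1 and 27.5 and 28.5 with siFAT1-2. In HN30 it was at 78.5 and 59.0 CPM with NC, 64.6 and 58.3 with siFAT1-1 and 42.5 and 38.4 with siFAT1-2. The siFAT1-2 libraries were the lowest in each line and overlapped with no other. NDUFB10 fell by 0.80 ± 0.15 with siFAT1-2 on the log2 scale (SE; edgeR, adjusted p = 0.00814), a call that held on leaving out each of the 12 libraries. With siFAT1-1 its log2 fold change was -0.16 ± 0.15 (SE; edgeR, adjusted p = 0.589).

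NDUFS8 carries iron-sulphur clusters of the hydrophilic arm. It was at 159.5 and 195 CPM with NC in HN6, 188 and 162 with siFAT1-1 and 92.6 and 104 with siFAT1-2. In HN30, values were 139 and 99.7 CPM with NC, 122 and 122 with siFAT1-1 and 98.7 and 69.5 with siFAT1-2. The separation was wide in HN6, and in HN30 the higher siFAT1-2 library lay just under the lower NC library. NDUFS8 fell by 0.68 ± 0.17 on the log2 scale (SE; edgeR, adjusted p = 0.024), and the call was lost without HN6 NC repeat 2, HN6 siFAT1-2 repeat 1, HN30 NC repeat 1 or HN30 siFAT1-2 repeat 2 (adjusted p 0.0521 to 0.0814).

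NDUFB5, another membrane-arm subunit, was at 61.4 and 68.3 CPM with NC in HN6, 78.3 and 77.2 with siFAT1-1 and 34.2 and 54.0 with siFAT1-2. HN30 had 40.3 and 38.0 CPM with NC, 52.8 and 46.0 with siFAT1-1 and 26.0 and 17.4 with siFAT1-2. NC lay between the siRNAs in both lines. The log2 fold change was -0.70 ± 0.19 with siFAT1-2 (SE; edgeR, adjusted p = 0.0331) and 0.30 ± 0.19 with siFAT1-1 (SE; edgeR, adjusted p = 0.399). The siFAT1-2 call held without HN6 NC repeat 1, HN6 siFAT1-1 repeat 2, HN6 siFAT1-2 repeat 2 or HN30 siFAT1-1 repeat 1 and was lost without each of the other 8 libraries (adjusted p 0.0537 to 0.0882).

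SDHA, the subunit that oxidises succinate, was at 196 and 299 CPM with NC in HN6, 246 and 232 with siFAT1-1 and 149 and 175 with siFAT1-2. Values in HN30 were 464 and 405 CPM with NC, 391 and 398 with siFAT1-1 and 310.4 and 339.6 with siFAT1-2. In both lines the siFAT1-2 libraries lay below the NC libraries. SDHA fell by 0.51 ± 0.15 on the log2 scale (SE; edgeR, adjusted p = 0.0436), and the call held only without HN6 NC repeat 1, with adjusted p 0.0502 to 0.118 without each of the other 11 libraries. Among the rest of complex II, siFAT1-2 gave log2 fold changes of 0.30 ± 0.17 for the iron-sulphur subunit SDHB, -0.03 ± 0.17 for the membrane anchor SDHC and -0.32 ± 0.14 for the anchor SDHD (SE; edgeR, adjusted p 0.26, 0.915 and 0.142).

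ATP5F1 (current symbol ATP5PB), the peripheral stalk subunit of complex V, was the 1 member that rose. It was at 168 and 177 CPM with NC in HN6, 196 and 203 with siFAT1-1 and 209 and 250.9 with siFAT1-2. The HN30 libraries were at 62.2 and 62.3 CPM with NC, 68.8 and 73.7 with siFAT1-1 and 102 and 88.2 with siFAT1-2. The conditions stood in the same order in both lines with no overlap. ATP5F1 rose by 0.52 ± 0.12 on the log2 scale with siFAT1-2 (SE; edgeR, adjusted p = 0.0215), and with siFAT1-1 its log2 fold change was 0.20 ± 0.12 (SE; edgeR, adjusted p = 0.39). The call was lost without HN30 NC repeat 1 or HN30 siFAT1-2 repeat 1 (adjusted p 0.059 to 0.0652).

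**Figure D2:**
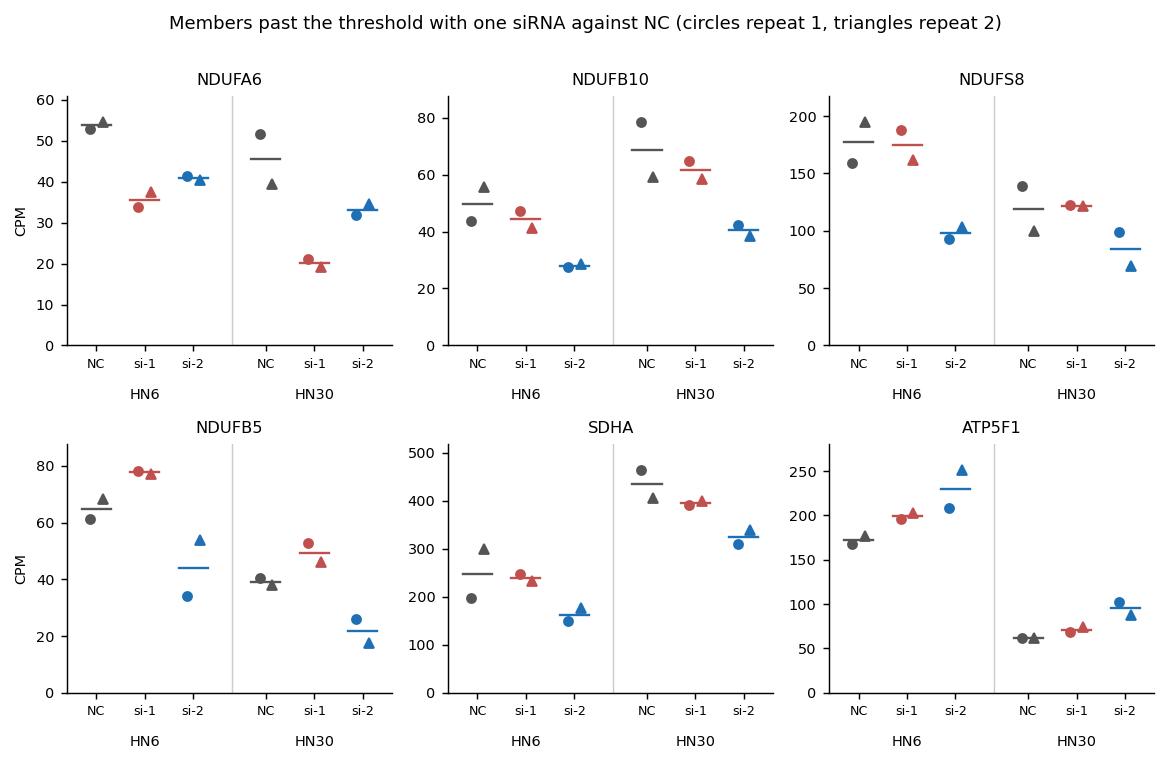
CPM (y axis, from 0) of the 6 members that passed with one siRNA against NC, by line and siRNA (x axis, si-1 for siFAT1-1 and si-2 for siFAT1-2), with circles for repeat 1, triangles for repeat 2 and bars for the mean of both. NDUFA6 is lowest with siFAT1-1, NDUFB10, NDUFS8, NDUFB5 and SDHA are lowest with siFAT1-2, and ATP5F1 is highest with siFAT1-2.

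The siRNAs were then compared with each other, a test that does not use NC as the reference. It called 9 of 91 members at the adjusted threshold, where 17.4% of all genes were called. Without the cell line in the model, none of these 9 calls, or of the 6 against NC, passed. There 2.06% of all genes passed between the siRNAs, 0.202% with siFAT1-1 and 0.439% with siFAT1-2. At an unadjusted P under 0.05, 11 members were higher with siFAT1-1 (17.8% of all genes) and 12 were lower (16.1% of all genes). With transcript length offsets the unadjusted split was 10 higher and 19 lower, with 4765 of the 13887 genes under 0.05. The adjusted calls were then 3 higher and 10 lower, where 18.8% of all genes passed.

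Markers of squamous epithelium moved with the siRNAs as well. Of the 7 tested, KRT5, KRT17, KRT6A and CDH1 were higher with siFAT1-1 than with siFAT1-2, with log2 fold changes of 1.98, 2.82, 1.82 and 0.86 (edgeR, adjusted p 0.0162, 0.00145, 0.0111 and 0.0111), and the median over the list was 1.72. Another 2 of the 7 lay below 0 (lowest -0.56), 1 of them at an unadjusted P under 0.05 and 0 past the adjusted threshold (edgeR). The summed level of the list in HN6 was 1385 and 2718 CPM with NC, 4589 and 4065 with siFAT1-1 and 1645 and 2293 with siFAT1-2. In HN30 it was 1737 and 1611 CPM with NC, 2553 and 2368 with siFAT1-1 and 1043 and 1400 with siFAT1-2. The siFAT1-1 libraries were above those of siFAT1-2 in each line, and KRT14 was at 0 in 5 of the 6 HN30 libraries. Endothelial markers summed to 0.202 to 1.75 CPM with siFAT1-2 and 2.84 to 7.87 with siFAT1-1, fibroblast markers to 31.9 to 164 and 41.2 to 112, and leukocyte markers to 24.3 to 124 and 28.3 to 83.5. PTPRC was at 0 in 11 of 12 libraries. The part of these markers in the members' differences between the siRNAs, or against NC, was not tested.

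Members higher with siFAT1-1 than with siFAT1-2 were NDUFB5 (log2 fold change 1.00 ± 0.19), NDUFS8 (0.68 ± 0.17), NDUFB10 (0.63 ± 0.15), SDHD (0.44 ± 0.14) and NDUFV2 (0.37 ± 0.12; SE, edgeR adjusted p 0.00549, 0.0174, 0.015, 0.0445 and 0.0499). NDUFV2 holds an iron-sulphur cluster of the NADH-oxidising module. It was at 134 and 152 CPM with siFAT1-1 in HN6 and 118 and 114 with siFAT1-2, and in HN30 at 86.7 and 89.3 against 63.7 and 66.8. SDHD was at 66.8 and 73.9 CPM with siFAT1-1 in HN6 and 55.5 and 55.7 with siFAT1-2, and in HN30 at 69.8 and 79.2 against 54.9 and 47.5. In both genes the siRNAs did not overlap in either line.

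Members lower with siFAT1-1 were NDUFA5 (-1.01 ± 0.32), NDUFAF6 (-0.93 ± 0.24), NDUFAF4 (-0.90 ± 0.26) and COX7C (-0.62 ± 0.19; SE, edgeR adjusted p 0.0485, 0.0234, 0.0339 and 0.0422). NDUFAF4 and NDUFAF6 are assembly factors of complex I. NDUFAF6 was at 9.99 and 9.84 CPM with siFAT1-1 in HN6 and 12.9 and 15.2 with siFAT1-2, and in HN30 at 6.28 and 9.59 against 22.2 and 19.2. NDUFAF4 was at 7.29 and 10.3 against 9.94 and 18.0 CPM in HN6 and at 8.45 and 9.13 against 21.2 and 18.7 in HN30. The siRNAs overlapped for NDUFAF4 in HN6 and were well apart for both factors in HN30. Over all 8 NDUFAF factors the median log2 fold change between the siRNAs was -0.50, with 7 below 0. For 46 assembly factors outside this group it was -0.30, with 31 below 0. The 78 mitochondrial ribosomal proteins had -0.23 with 58 below 0, and all genes -0.02 with 7145 of 13887 below 0.

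COX7C, a small subunit of complex IV, was at 46.4 and 55.9 CPM with siFAT1-1 in HN6 and 76.0 and 57.1 with siFAT1-2, and in HN30 at 57.8 and 50.1 against 114 and 81.6. NDUFA5, an accessory subunit of the hydrophilic arm, was at 18.4 and 24.5 against 50.7 and 46.8 CPM in HN6 and at 33.0 and 29.9 against 60.8 and 50.2 in HN30. Its NC libraries in HN6 were far apart, at 32.0 and 8.57 CPM. UQCRB, a complex III subunit that did not pass in this comparison (-0.69 ± 0.25 SE; edgeR, adjusted p = 0.0738), differed between the same NC libraries in the same way, at 53.8 and 28.1 CPM.

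Of these 9 calls, that of NDUFB5 held on leaving out each of the 12 libraries and that of NDUFV2 held on leaving out none. NDUFB10 was lost without HN30 siFAT1-1 repeat 1 (adjusted p = 0.0563), NDUFS8 without HN6 siFAT1-1 repeat 1 or HN30 siFAT1-1 repeat 2, and NDUFAF6 without HN30 siFAT1-1 repeat 1, HN30 siFAT1-1 repeat 2 or HN30 siFAT1-2 repeat 1. NDUFAF4 was lost without 6 of the 12 libraries, SDHD and COX7C without 9 and NDUFA5 without 10. With the replicate block (the repeat label within each line), SDHD, NDUFV2 and NDUFA5 no longer passed (edgeR, adjusted p 0.0632, 0.067 and 0.0585).

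**Figure D3:**
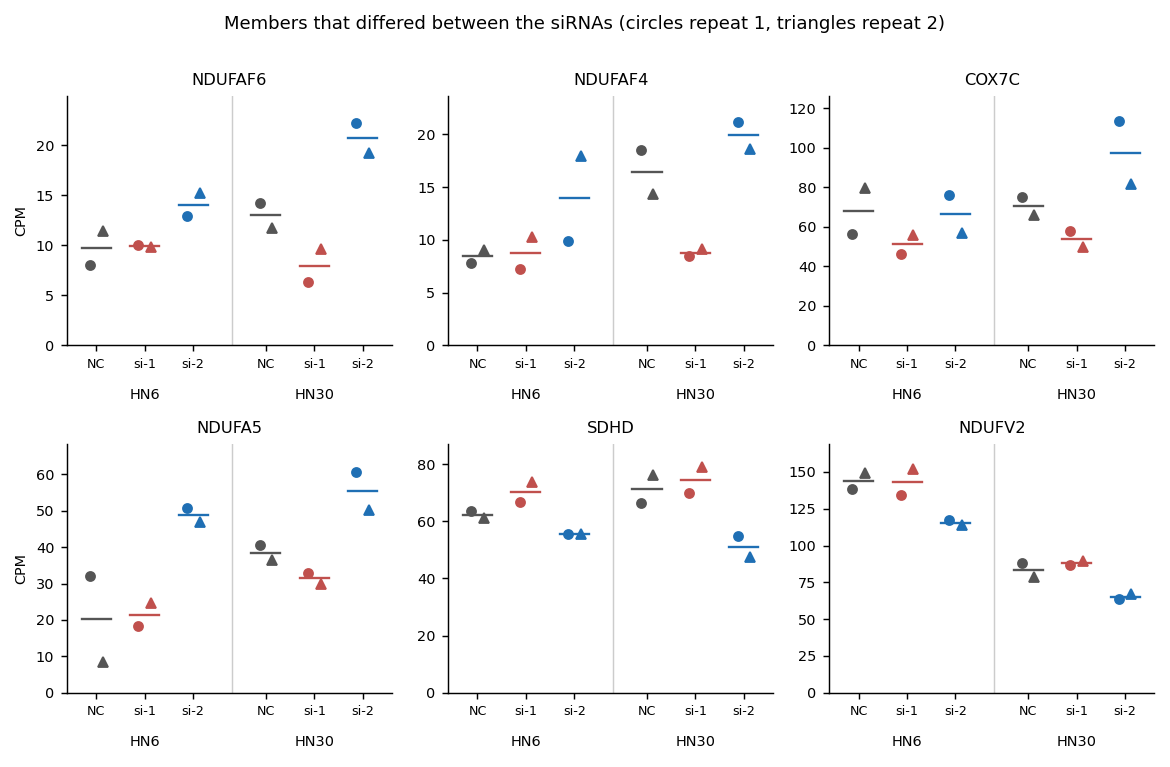
CPM (y axis, from 0) of 6 of the 9 members that differed between the siRNAs, by line and siRNA (x axis, si-1 for siFAT1-1 and si-2 for siFAT1-2), with circles for repeat 1, triangles for repeat 2 and bars for the mean of both. NDUFAF6, NDUFAF4, COX7C and NDUFA5 are higher with siFAT1-2, SDHD and NDUFV2 are higher with siFAT1-1, and the NC repeats of NDUFA5 in HN6 lie far apart.

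The lists around the respiratory chain gave further calls with siFAT1-2. Of the 14 citric acid cycle enzymes, which supply NADH and succinate, 6 fell (7.47% of all genes did with siFAT1-2) and 0 rose (4.35% of all genes). SUCLG2, a subunit of succinyl-CoA ligase, was at 28.6 and 33.2 CPM with NC and 8.36 and 18.8 with siFAT1-2 in HN6, and at 57.5 and 75.3 against 17.8 and 20.4 in HN30. It fell by 1.49 ± 0.24 on the log2 scale (SE; edgeR, adjusted p = 0.00465). OGDH, which makes succinyl-CoA, fell by 0.96 ± 0.23 (SE; edgeR, adjusted p = 0.021), and the others were IDH2, IDH3G, DLST and SUCLG1. IDH2, the mitochondrial NADP-linked isocitrate dehydrogenase, also fell over both siRNAs together, by 1.45 ± 0.26 (SE; edgeR, adjusted p = 0.0262). With siFAT1-1, 1 of the 14 enzymes rose (1.16% of all genes did) and 1 fell (2.09% of all genes), IDH2, by 1.49 on the log2 scale (edgeR, adjusted p = 0.027).

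Among the 46 assembly factors outside the NDUFAF group, 4 rose and 1 fell with siFAT1-2, and 0 rose and 1 fell with siFAT1-1. For these and the ribosomal lists the shares of all genes called were again 11.8 and 3.25%. The factors that rose included LRPPRC, which stabilises mitochondrial mRNAs (1.04 ± 0.24 SE; edgeR, adjusted p = 0.0196), and SDHAF3, a complex II assembly factor (1.16 ± 0.25 SE; edgeR, adjusted p = 0.0145). The 1 that fell with siFAT1-1 was COX20, a chaperone of COX2 (-0.93 ± 0.15 SE; edgeR, adjusted p = 0.00667). Of 15 regulators tested, ESRRA, a nuclear receptor that drives respiratory genes, fell with siFAT1-1 by 1.26 ± 0.18 on the log2 scale (SE; edgeR, adjusted p = 0.00365), and TFB2M, a mitochondrial transcription factor, rose with siFAT1-2 by 0.92 ± 0.21 (SE; edgeR, adjusted p = 0.0183). Cytochrome c itself (CYCS) was at 114 and 70.6 CPM with NC in HN6 and 173 and 226 with siFAT1-2, and in HN30 at 272 and 216 against 479.9 and 484.5. It rose by 1.05 ± 0.18 on the log2 scale with siFAT1-2 (SE; edgeR, adjusted p = 0.00649). Of the 78 mitochondrial ribosomal proteins, 3 rose and 3 fell with siFAT1-2, and 0 rose and 3 fell with siFAT1-1. Of the 79 cytosolic ribosomal proteins tested, 0 rose and 2 fell with siFAT1-2.

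Within HN6 alone, FAT1 KD against NC gave 0 of 91 members at the adjusted threshold (0.0072% of all genes, edgeR), with 0 higher (5.72% of all genes) and 9 lower (8.39% of all genes) at an unadjusted P under 0.05. DESeq2 and limma-voom also called 0, where they called 3.42 and 0.0432% of all genes. The 9 were ATP5G1, NDUFA6, NDUFA9, COX7A2L, UQCRH, NDUFB10, NDUFV1, UQCRC1 and NDUFV3. The median was -0.19 over members and 70 of 91 lay below 0, against -0.03 over all genes with 7235 of 13887 below 0. It changed with the NC repeats, to -0.29 without HN6 NC repeat 1 and -0.09 without HN6 NC repeat 2. With transcript length offsets the median over members was -0.07, and all genes of up to 1000 nucleotides had a median of -0.17 in HN6. The part of length in the members' median was not tested. Within HN30, the adjusted test called 0 of 91 (0.0576% of all genes, edgeR), with 2 members higher, ATP5F1 among them (5.16% of all genes) and NDUFA6, NDUFC2, NDUFB10 and NDUFV3 lower (9.07% of all genes) at an unadjusted P under 0.05. DESeq2 called 1, NDUFA6 (4.02% of all genes), and limma-voom 0 (0.0576% of all genes), and the median was 0.00. The interaction of line and FAT1 KD was called for 0 of 91 members (0% of all genes, edgeR). DESeq2 and limma-voom also called 0 members for it (0.0144 and 0% of all genes). NDUFV1 alone was at an unadjusted P under 0.05 (4% of all genes were), with a difference of 0.53 in log2 fold change. The median of this difference over members was 0.20, with 0.31 without HN6 NC repeat 1 and 0.07 without HN6 NC repeat 2.

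Levels by complex followed the same pattern of small differences. Complex I sums were 2326 and 2650 CPM with NC in HN6, 2288 and 2184 with siFAT1-1 and 2114 and 1819 with siFAT1-2. In HN30 they were 2491 and 2084 CPM with NC, 2283 and 2175 with siFAT1-1 and 2436 and 2137 with siFAT1-2. In HN6 all FAT1 KD libraries lay below both NC libraries for complex I, and in HN30 the conditions overlapped. Complex V sums in HN6 were 2331 and 3184 CPM with NC and 2333 to 2397 with FAT1 KD, so that 1 NC library stood apart. In HN30 they were 2368 and 2190 CPM with NC and higher, at 2470 and 2405, with siFAT1-2. Its catalytic beta subunit ATP5B, at 838 CPM in the other NC library and 1290 in that one, was the most abundant member. Complex II sums with siFAT1-2 were 385 and 399 CPM in HN6 against 407 and 579.6 with NC, and 584 and 584 in HN30 against 692 and 636. In both lines they lay below NC, and they carry the SDHA difference given above. Complex III sums with siFAT1-1 lay below both NC libraries in each line, at 748 and 707 against 779 and 899.7 CPM in HN6 and at 731 and 690.2 against 810.3 and 765 in HN30, and 1 siFAT1-2 library lay between the NC libraries in HN6. With siFAT1-2 in HN30 they were 921.7 and 836 CPM, above both NC libraries. Complex IV sums in HN6 were 1526 and 1752 CPM with NC and 1145 to 1516 with FAT1 KD, and in HN30 the conditions overlapped.

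**Figure D4:**
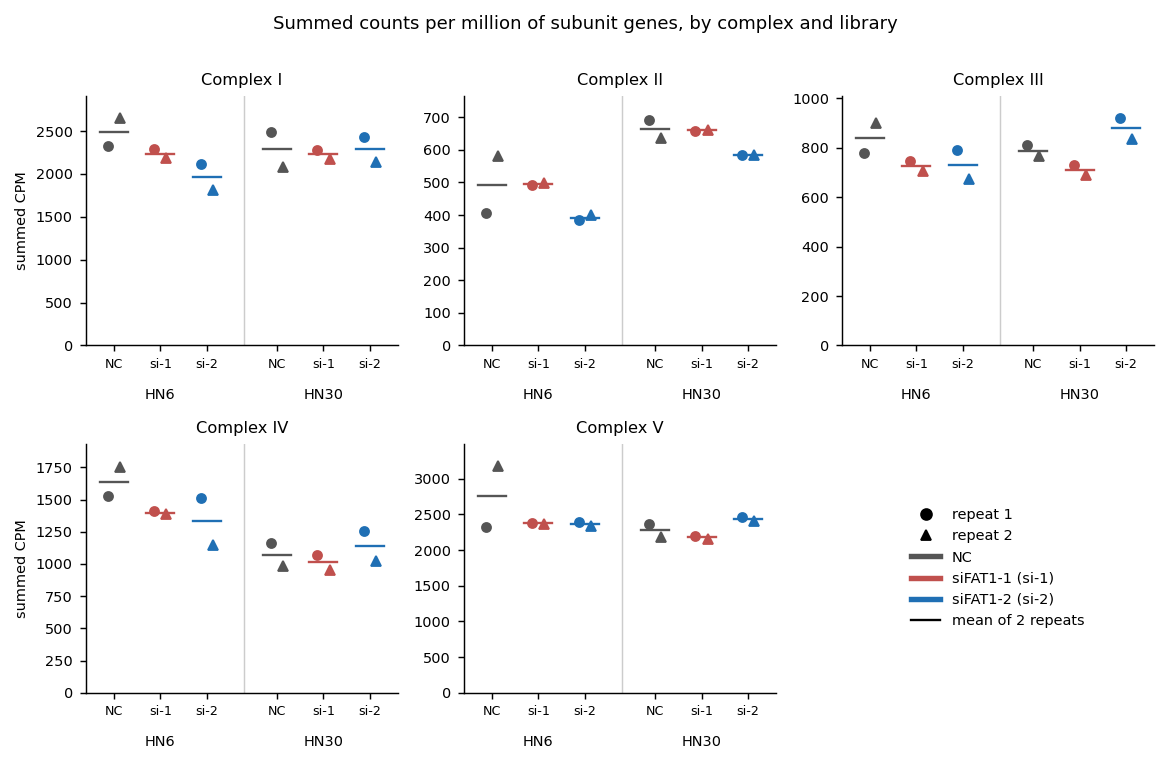
Summed CPM of the subunit genes of each complex (y axis, from 0) in all 12 libraries, by line and siRNA (x axis, si-1 for siFAT1-1 and si-2 for siFAT1-2), with circles for repeat 1, triangles for repeat 2 and bars for the mean of both. In HN6 the second NC repeat is the highest library for each complex, at 3184 CPM for complex V, and complex II is higher in HN30.

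Members are short and abundant, so the medians of other such genes are given beside theirs for each library. Relative to the NC mean of the line, the median of the members' log2 CPM was -0.11 and 0.11 in the NC libraries of HN6 and -0.13, -0.12, -0.07 and -0.35 in its FAT1 KD libraries (siFAT1-1 repeats first). In HN30 it was 0.10 and -0.10 with NC and 0.00, -0.10, 0.19 and 0.00 with FAT1 KD. The cytosolic ribosomal proteins stood at -0.23 and 0.23 with NC in HN6 and at -0.27 to -0.31 in the FAT1 KD libraries, and in HN30 at 0.08 and -0.08 with NC and -0.13, -0.27, 0.27 and 0.07 with FAT1 KD. Genes in the shortest decile of length stood at -0.12 and 0.12 with NC and at -0.06 to -0.33 with FAT1 KD in HN6, and at 0.09 and -0.09 with NC and 0.01, -0.06, 0.07 and -0.03 with FAT1 KD in HN30. Their part in the members' medians was not tested, and with transcript length offsets the median over members between FAT1 KD and NC was -0.04.

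Differences between the lines were larger than those with FAT1 KD. Over all 3 treatments, 51 of 91 members passed the adjusted threshold between HN30 and HN6, 23 higher and 28 lower, where 56.9% of all genes passed. At an unadjusted P under 0.05, 26 were higher in HN30 (30.7% of all genes) and 30 lower (31% of all genes). With transcript length offsets the adjusted calls were 31 higher and 14 lower, where 56.1% of all genes passed. The unadjusted ones were 33 and 17, with 8470 of the 13887 genes under 0.05. All 6 HN30 libraries lay above all 6 HN6 libraries for 10 members (13.3% of all genes) and below them for 9 (12.7% of all genes). The line and any other difference in how its cultures were handled cannot be told apart.

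In complex IV, 9 of the 14 tested genes were lower in HN30 (28.8% of all genes were) and 1 was higher, COX5A (28.2% of all genes). The 9 include COX7B2, which had 0 counts in HN30 and passed the filter on low counts through HN6 alone. In this complex, with transcript length offsets 5 were lower and 3 higher, where 56.1% of all genes passed in either direction. COX4I1, the common form of subunit IV, ranged from 312 to 514 CPM in HN6 (median 416) and from 189 to 280.0 in HN30 (median 207). The lines did not overlap, and COX4I1 was lower in HN30 by a log2 fold change of -0.88 ± 0.14 (SE; edgeR, adjusted p = 0.000172). COX8A ranged from 163 to 262 CPM in HN6 (median 218) and from 113 to 156 in HN30 (median 135), again without overlap (-0.60 ± 0.11 SE; edgeR, adjusted p = 0.000487). COX7A2L, which joins respiratory complexes into supercomplexes, overlapped slightly and had -0.55 ± 0.12 (SE; edgeR, adjusted p = 0.00161). By contrast NDUFA4, counted by name with complex I, ranged from 67.8 to 124 CPM in HN6 (median 80.3) and from 181 to 254 in HN30 (median 209). It had the largest increase among members, 1.29 ± 0.14 (SE; edgeR, adjusted p = 1.42e-05).

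In complex V, 5 of 15 genes were higher in HN30 (28.2% of all genes were) and 5 lower (28.8% of all genes). ATP5A1 (alpha subunit) and ATP5C1 (gamma subunit) were higher in HN30, with log2 fold changes of 0.67 ± 0.12 and 0.46 ± 0.10 (SE, edgeR, adjusted p 0.000397 and 0.00183). The gene of the catalytic beta subunit, ATP5B, did not pass (-0.23 ± 0.12 SE). ATP5A1 ranged from 247 to 412 CPM in HN6 (median 287) and from 453 to 492 in HN30 (median 479). ATP5F1 was lower in HN30, with 168 to 250.9 CPM in HN6 (median 199) and 62.2 to 102 in HN30 (median 71.2), a log2 fold change of -1.41 ± 0.10 (SE; edgeR, adjusted p = 4.57e-07). The difference of ATP5F1 between lines was thus larger than its rise with siFAT1-2, at log2 values of -1.41 and 0.52. Of the 3 genes for the same c-ring subunit, ATP5G3 and ATP5G1 were lower (-0.99 ± 0.12 and -0.59 ± 0.15 SE; edgeR, adjusted p 2.63e-05 and 0.00514) and ATP5G2 was at 0.01 ± 0.17.

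In complex II, SDHA ranged from 149 to 299 CPM in HN6 (median 214) and from 310.4 to 464 in HN30 (median 394), and SDHC from 49.0 to 76.7 (median 65.1) and from 84.5 to 120.0 (median 95.8). Both were higher in HN30 without overlap, by 0.85 ± 0.12 and 0.63 ± 0.14 (SE; edgeR, adjusted p 0.000105 and 0.00186). SDHB was lower with -0.46 ± 0.14 (SE; edgeR, adjusted p = 0.0137), a call lost with transcript length offsets, and SDHD was at 0.05 ± 0.11 (SE; edgeR, adjusted p = 0.702). In complex I, 12 of 39 genes were higher (28.2% of all genes were) and 11 lower (28.8% of all genes). NDUFS1, the large iron-sulphur subunit, ranged from 60.3 to 72.7 CPM in HN6 (median 67.6) and from 109 to 124 in HN30 (median 122.5), a log2 fold change of 0.85 ± 0.10 (SE; edgeR, adjusted p = 1.57e-05). NDUFV2 went the other way, from 114 to 152 CPM in HN6 (median 136) and from 63.7 to 89.3 in HN30 (median 82.5), with -0.77 ± 0.10 (SE; edgeR, adjusted p = 3.63e-05). In complex III, UQCRB was higher by 0.93 ± 0.21 and UQCRFS1 lower with -0.54 ± 0.15 (SE; edgeR, adjusted p 0.00219 and 0.00796). The 8 members with the smallest P in each direction kept their calls between the lines on leaving out each library.

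**Figure D5:**
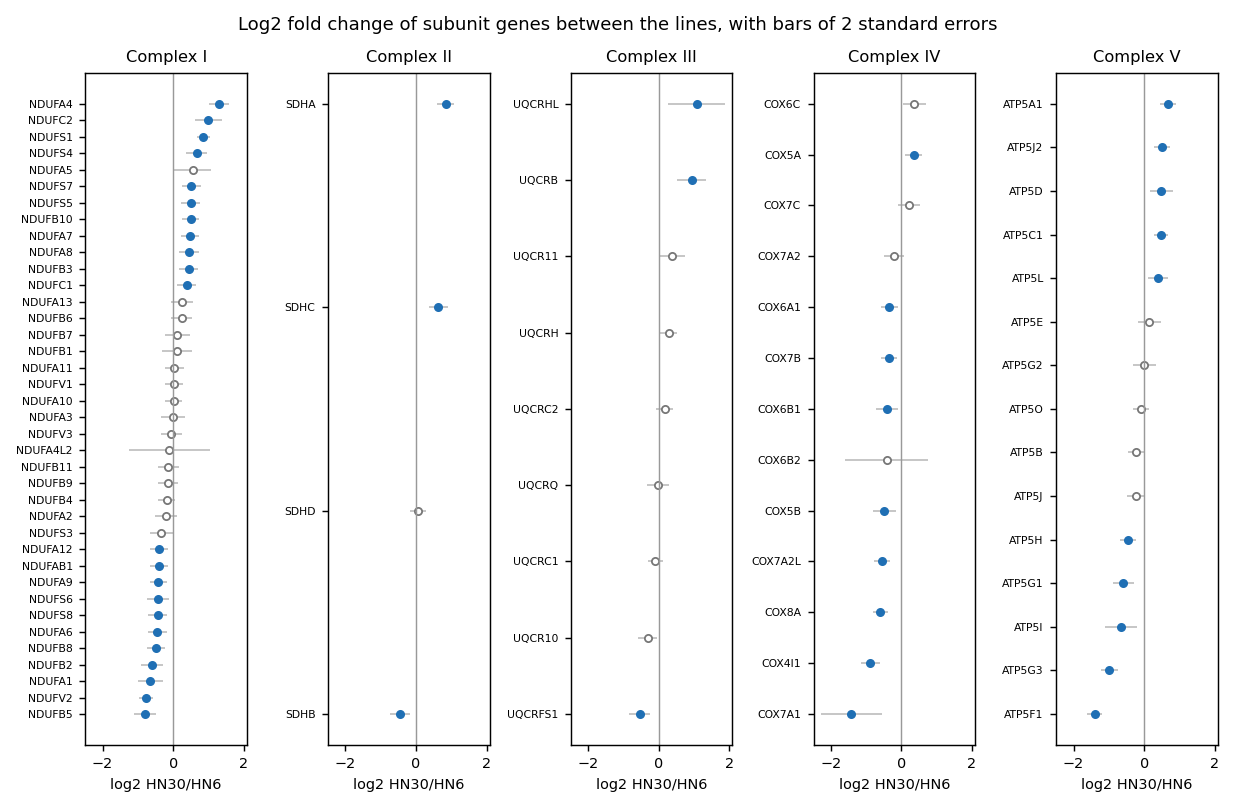
Log2 fold change between HN30 and HN6 (x axis) of tested subunit genes (y axis) by complex, with bars of 2 standard errors and filled points for an adjusted p under 0.05. Positive values are higher in HN30, COX7B2 is left out because HN30 had no count, and in complex IV 8 filled points lie below 0 and 1 above it.

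Tissue-restricted forms of subunits stayed low, and COX7B2 had counts in HN6 only. COX7B2, a form of COX7B, ranged from 0.717 to 3.02 CPM in HN6 and had 0 counts in the 6 HN30 libraries. Against a floor of 3 counts over those libraries (0.0148 CPM), it was at least 118-fold higher in HN6. Per kilobase of transcript it made up 5.73 to 17.6% of the COX7B pair in HN6. COX6B2 made up 0.366 to 7.48% of the COX6B pair over all 12 libraries. Of the other tissue forms, COX7A1 made up at most 1.26% of the COX7A set, COX4I2 at most 0.0255% of the COX4 pair and COX6A2 had no count. COX8C made up at most 0.0386% of the COX8 pair and NDUFA4L2, a hypoxia-induced gene, at most 2.28% of the NDUFA4 pair. These shares depend on the transcript chosen for each gene and cover the counts as given.

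Per kilobase, COX4I1 was the most abundant complex IV gene in HN6 (539 CPM per kilobase, mean of 6 libraries) and COX6A1 in HN30 (371). ATP5B led complex V in both lines (528 and 451), and NDUFB9 led complex I (216 and 197). UQCRC1 led complex III in HN6 (173) and UQCRH in HN30 (194), whereas in complex II it was SDHB in HN6 (115) and SDHA in HN30 (143). The lowest tested genes per kilobase were NDUFA4L2 in complex I (0.568 and 0.534), SDHD in complex II (46.9 and 49.0) and UQCRHL in complex III (4.99 and 10.4). In complex IV they were COX7A1 in HN6 (1.82) and COX7B2 in HN30, and in complex V ATP5E in HN6 (17.9) and ATP5I in HN30 (15.1). These ranks depend on the transcript chosen for each gene. ATP5E was given 3610 nucleotides and averaged 67.8 CPM over all libraries, whereas ATP5I was given 303 and averaged 5.88 CPM.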

How the data were processed

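Poly(A) RNA was sequenced from 12 libraries. The deposited table holds gene counts, which the authors made with HISAT2 and featureCounts on hg38 per the submitters' processing notes; versions, annotation and strand setting are not given in the sources used here. All 12 sample columns were used. Counts were tested with edgeR (4.0.16, R 4.3.3) quasi-likelihood fits: line plus FAT1 KD, line plus siRNA, and a mean per condition. Genes were filtered with a minimum count of 10 (13887 tested), scaled by TMM (factors 0.897 to 1.06) and adjusted by Benjamini-Hochberg over all of them. limma (3.58.1) and DESeq2 (1.42.0) were alternatives, as were transcript lengths from GENCODE 44. In the fit with a mean per condition, P-values measure the spread between repeats only, which may be partly technical. The spread in the fits with a line term also holds differences between the lines in their response. With both siRNAs together it holds the difference between the siRNAs too. The labels give the repeats as time1 and time2, and whether same-numbered libraries were handled together is not stated. Correlations of same-numbered deviations within a line were -0.0337 to 0.405. Named members were the SDH genes, standard core and accessory subunits and tissue isoforms. Also named were up to 5 with the smallest P under 0.05 each way in a comparison (8 between lines). So were those with an adjusted p under 0.05 or a log2 fold change above 1 with FAT1 KD. The highest and lowest per length in each complex were named too. Genes of other lists were named by the P and threshold rules only. Other settings were DESeq2 size factors, no low-count filter, a replicate block, no line term, and each library left out. The members and lists were chosen with earlier results of these data known. Fits were tested on simulated counts. Withheld genes are counted in the totals and medians but are not reported here by name, and the plot of the lines by gene leaves them out.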

Additional observations from a re-analysis of the deposited data

How the results depend on the processing

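Counts of members at an adjusted p under 0.05 are given here for each setting that moved them by over 1.5 times. DESeq2's test called 2 members for FAT1 KD against NC, 4 for siFAT1-1, 15 for siFAT1-2, 19 between the siRNAs and 1 for FAT1 KD in HN30, in place of 0, 1, 5, 9 and 0. It called 4.71, 9.3, 19.4, 25.9 and 4.02% of all genes there, against 0.547, 3.25, 11.8, 17.4 and 0.0576%. Without the cell line term, siFAT1-1, siFAT1-2 and the comparison between the siRNAs each called 0 (0.202, 0.439 and 2.06% of all genes). With transcript length offsets siFAT1-1 called 3 (3.59% of all genes). With the replicate block the counts were 0, 1, 5 and 6 (0.317, 2.96, 11.6 and 18.2% of all genes), with 53 between the lines (main 51, 57.9% of all genes). They were 0 in each line (0.0072% of all genes in both) and for the interaction (0%), so no count moved by over 1.5 times. On leaving out each library in turn, the counts ran from 0 to 2 for siFAT1-1 (0.818 to 5.06% of all genes) and from 1 to 5 for siFAT1-2 (4.93 to 12.2%). They ran from 2 to 16 between the siRNAs (7.36 to 24%) and from 43 to 50 between the lines (50.7 to 56.3%). For FAT1 KD against NC they were 0 throughout (0.0853 to 0.441%). Within a line and for the interaction such counts are not given, because leaving out a library leaves 1 in its condition. The 16 came without HN6 NC repeat 2, the 7 and the 1 without HN6 NC repeat 1, the 2 for siFAT1-1 without HN6 siFAT1-2 repeat 2 and the 1 for siFAT1-2 without HN30 NC repeat 1. The members recomputed in every setting, those past the threshold or with the smallest P in each comparison, kept their sign. The median over members took both signs across settings between the lines (-0.14 to 0.10), between the siRNAs (-0.15 to 0.05) and for FAT1 KD in HN30 (-0.12 to 0.12). With length offsets SDHD and NDUFV2 no longer passed between the siRNAs. At an unadjusted P under 0.05, the split of higher and lower members went from 3 and 5 to 4 and 4 for FAT1 KD with length offsets. It went from 2 and 8 to 3 and 4 for siFAT1-1 with DESeq2 size factors, and from 0 and 9 to 2 and 3 for HN6 with length offsets. In these settings 2037, 2648 and 1945 of the 13887 genes were under 0.05. The causes were not tested. Where a library was left out of a pair, the remaining one was assumed to vary like the other conditions.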

Other observations

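UQCRHL, a near-identical copy of UQCRH, was at 4.36, 4.12 and 4.47 CPM in the first repeats of the HN30 conditions (NC, siFAT1-1 and siFAT1-2) and at 1.13, 1.29 and 1.89 CPM in the second repeats. In HN6 it lay between 0.993 and 1.74 CPM in all 6 libraries, so that the repeats were separate in HN30 and overlapped in HN6. ATP5B alone took 9.30 to 13.8% of the members' summed CPM.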
